A study of Mus musculus with 13 samples.

Results

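A total of 583 of the 12470 KAP1 peaks called in Hepa 1-6 cells (4.68%) lay on H3K9me3 and on an active histone mark at the same time. These peaks were chosen as those that overlap by at least 1 bp a region of H3K9me3 and also a region of H3K27ac or H3K4me1. They were thus selected on the KAP1, H3K9me3, H3K27ac and H3K4me1 lists, in which H3K9me3 lay on 40.1% and an active mark on 47.9% of KAP1 peaks, and these values are given below as a description with no test. They are called doubly marked KAP1 peaks here. The other KAP1 peaks fell into 4412 with H3K9me3 and no active mark (H3K9me3-only), 5388 with an active mark and no H3K9me3 (active-only) and 2087 with neither. Hepa 1-6 is an established murine hepatoma cell line, and the series profiled it by ChIP-Seq, in which the DNA bound by an antibody target is sequenced and stretches rich in reads are called as peaks or regions. KAP1, H3K9me3, H3K27ac and H3K4me1 were profiled in cells grown under standard culture, with no vector. RNA polymerase II (PolII, antibody CTD4H8) and RNA polymerase III (PolIII, antibody to its subunit RPC32) were profiled 5 days after transduction, as the treatment protocol in the labels has it (other label fields speak of plasmid transfection), either in cells that received a short hairpin RNA against KAP1 (Kap1 KD) or in control cells, which carried a control hairpin according to the labels and an empty vector according to the methods. Each antibody and condition is 1 library, so no value below carries a replicate error, and every p-value describes peaks in these lists, which are not replicate samples. The KAP1 and mark lists come from untransduced cells and the polymerase lists from transduced ones, so no peak was seen with all marks and a polymerase in the same chromatin preparation. KAP1 and the marks were not measured here in Kap1 KD cells.

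KAP1, the product of Trim28, is a corepressor that does not read DNA sequence itself. It is best known for being brought to DNA by zinc finger proteins that carry a KRAB domain, and at such sites it recruits the methyltransferase SETDB1, which deposits H3K9me3, a mark of silenced chromatin. H3K27ac and H3K4me1 are found at active enhancers and around active promoters. A population of cells can carry both kinds of mark at a locus on different alleles, in different cells or on the same chromatin, and lists of regions do not tell these apart. At imprinted regions KAP1 is brought by ZFP57 to the methylated allele only, so such regions are known for carrying H3K9me3 on 1 allele and active marks on the other.

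The sequences of 6 doubly marked peaks are shown because the results below return to these sites. Each is the 300 bp around the centre of the KAP1 peak, read on the forward strand of the mm9 assembly (NCBIM37). The first is from the doubly marked peak with the highest KAP1 score, in the coding exon of Mocs3, where PolII was called under Kap1 KD and not in the control. The next is from the imprinted Zrsr1 locus, inside the gene Commd1 and ending in an exon of one of its annotated transcripts, with PolII in both conditions. The intergenic window on chromosome 2 is from a peak that PolII covered in large part in the control and almost entirely under Kap1 KD. The Atf3 window lies upstream of the Atf3 start site and holds the core motif of ZFP57. The Ccdc48 window is intronic and the window on chromosome 13 is intergenic, and both peaks had PolII under Kap1 KD only. Capitals mark the ZFP57 core, which reads TGCCGC or on the other strand GCGGCA, in the Atf3 window. In the Zrsr1 and chromosome 13 windows they mark instead the most repeated run of 8 letters, TAACTGCG with 5 copies and ACAGCACA with 25 copies that do not overlap each other. No capitals are given in the other windows, where no TGCCGC was found.
Mocs3, chr2:168056548-168056847: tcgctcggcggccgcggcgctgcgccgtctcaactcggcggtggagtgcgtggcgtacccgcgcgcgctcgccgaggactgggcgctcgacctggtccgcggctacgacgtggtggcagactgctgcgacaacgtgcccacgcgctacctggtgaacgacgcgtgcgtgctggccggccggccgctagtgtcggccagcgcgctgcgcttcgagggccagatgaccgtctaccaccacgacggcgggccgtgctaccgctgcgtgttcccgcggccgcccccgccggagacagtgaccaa
Zrsr1 and Commd1, chr11:22872390-22872689: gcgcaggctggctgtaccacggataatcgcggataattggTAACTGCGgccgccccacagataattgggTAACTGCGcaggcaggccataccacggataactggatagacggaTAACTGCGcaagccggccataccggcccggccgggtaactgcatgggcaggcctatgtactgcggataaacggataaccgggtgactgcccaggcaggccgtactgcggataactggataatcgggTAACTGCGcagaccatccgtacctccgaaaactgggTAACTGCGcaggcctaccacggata
Intergenic, chr2:164351917-164352216: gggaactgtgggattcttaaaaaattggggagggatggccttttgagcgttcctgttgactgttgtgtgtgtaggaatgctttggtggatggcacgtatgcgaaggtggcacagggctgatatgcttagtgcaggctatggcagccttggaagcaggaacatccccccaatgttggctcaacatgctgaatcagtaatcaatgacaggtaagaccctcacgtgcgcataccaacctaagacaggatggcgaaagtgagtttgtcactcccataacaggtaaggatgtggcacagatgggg
Atf3, chr1:193007411-193007710: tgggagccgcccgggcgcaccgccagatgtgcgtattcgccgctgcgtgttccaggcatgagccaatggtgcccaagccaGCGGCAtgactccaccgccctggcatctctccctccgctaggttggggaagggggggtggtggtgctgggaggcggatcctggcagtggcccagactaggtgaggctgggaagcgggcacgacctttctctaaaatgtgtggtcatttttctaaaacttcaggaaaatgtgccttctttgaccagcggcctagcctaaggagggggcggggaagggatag
Ccdc48, chr6:87685202-87685501: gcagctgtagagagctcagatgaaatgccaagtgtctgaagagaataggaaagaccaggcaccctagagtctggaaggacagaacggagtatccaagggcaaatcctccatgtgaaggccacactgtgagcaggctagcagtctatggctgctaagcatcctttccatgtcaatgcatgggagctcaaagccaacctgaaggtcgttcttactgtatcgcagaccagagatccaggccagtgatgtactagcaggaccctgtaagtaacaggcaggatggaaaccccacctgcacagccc
Intergenic, chr13:74667579-74667878: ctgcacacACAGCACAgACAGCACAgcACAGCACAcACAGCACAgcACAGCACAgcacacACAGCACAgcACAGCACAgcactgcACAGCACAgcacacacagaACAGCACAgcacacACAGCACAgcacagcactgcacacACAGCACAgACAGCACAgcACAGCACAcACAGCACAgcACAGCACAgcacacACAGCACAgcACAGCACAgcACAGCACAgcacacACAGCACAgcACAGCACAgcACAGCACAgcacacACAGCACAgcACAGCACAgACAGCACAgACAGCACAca
The Mocs3 window was 73.7% G+C, the intergenic window on chromosome 2 was 50.3% G+C, and the 2 repeat windows were 58.3 and 57.7% G+C.

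The lists held 66242 H3K9me3, 57562 H3K27ac and 74014 H3K4me1 regions. Control PolII numbered 5015 peaks and Kap1 KD PolII 12862, while control PolIII numbered 2772 and Kap1 KD PolIII 431. The control PolIII list stood apart, with 2480 of its peaks (89.5%) on chromosomes 1 to 4, against 20.6% for Kap1 KD PolIII and 25.4% for each PolII list, so PolIII values are also given without these chromosomes. The peak numbers of the 4 polymerase lists have gaps, for which no source used here gives a reason, and 22.6 to 31.3% of the numbers were missing for PolII, 30.4% for control PolIII and 55.0% for Kap1 KD PolIII. Read counts are not given in the files, and the depth behind each list is therefore unknown. The labelled hepatoma identity was checked at gene promoters, here the 250 bp before and after each 5′ end. H3K27ac lay over 8 of 15 hepatocyte marker promoters, among them Alb, Afp, Hnf4a and Apoe, and over 1 of 10 markers of other cell types, Col1a1. Control PolII lay over 2 of the 15, Foxa2 and Apoe, and 0 of the 10.

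Doubly marked peaks were wide. Their median width was 1716 bp (interquartile range 1222 to 2712 bp, full range 393 to 18018 bp), against 1109 bp for H3K9me3-only and 1133 bp for active-only peaks. The class made up 1.32% of KAP1 peaks in the lowest quintile of width and 14% in the highest. The authors' KAP1 score, which ranks peaks within the list, had a median of 152 against 133 and 91.9, and the class took 2.97% of the lowest and 8.86% of the highest score quintile. The mark regions at these peaks were also long for H3K9me3, with a median of 782 bp for the 735 regions concerned against 324 bp over the list. The medians were 792 against 532 bp for 536 H3K27ac regions and 631 against 617 bp for 703 H3K4me1 regions. Since longer regions are met more often, these widths describe the selection and were not tested.

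Within the doubly marked peaks the marks mostly met or touched. In 444 peaks (76.2%, 95% Wilson interval 72.5 to 79.4%) at least 1 base carried H3K9me3 and an active mark together. In another 46 (7.89%) the nearest edges inside the peak lay within 200 bp, and in 93 (16.0%) they lay farther apart. Summed over all bases of these peaks, 32.5% lay in H3K9me3 alone, 29.7% in an active mark alone, 18.3% in both and 19.4% in neither. The bases in both had a median of 209 bp per peak (interquartile range 26 to 556 bp, highest 5785 bp). H3K9me3 covered a median of 42.3% of the peak and the active marks 38.3%, against 65.0% and 57.8% of the peaks with 1 kind of mark. The nearest H3K9me3 and active regions had their centres on opposite sides of the KAP1 peak centre at 323 peaks (55.4%) and on the same side at 260. The map of the peaks shows how these stretches lie in each of them.

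**Figure D1:**
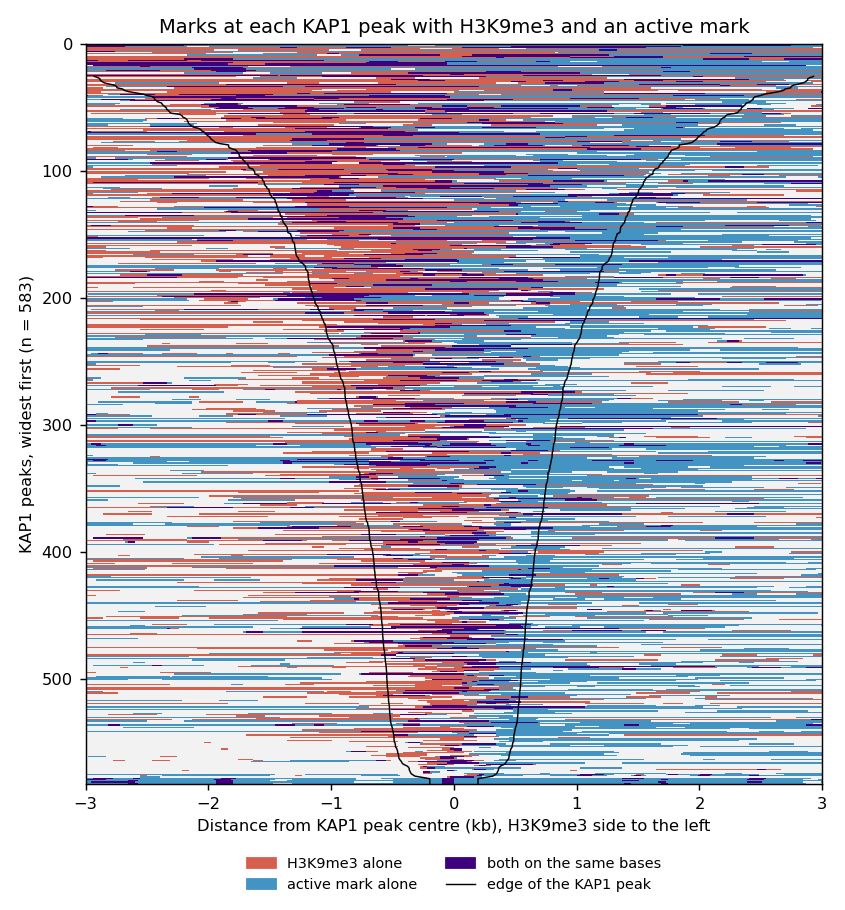
Marks at each of the 583 doubly marked KAP1 peaks, 1 peak per line with the widest on top; the x axis is the distance from the KAP1 peak centre in kb. Each line was turned so that the bases in H3K9me3 inside the peak lie on average to the left of those in an active mark, so the left to right order is set by construction; the dark stretches are bases in both, present inside 444 peaks.

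The active mark was more often H3K4me1 than H3K27ac. H3K4me1 without H3K27ac marked 217 doubly marked peaks (37.2%), H3K27ac without H3K4me1 84 (14.4%), and both marked 282 (48.4%). H3K27ac was thus present at 62.8% (58.8 to 66.6%) of doubly marked and at 90.3% (89.5 to 91.1%) of active-only peaks, whereas H3K4me1 was present at 85.6% (82.5 to 88.2%) and 81.8% (80.8 to 82.8%). These lists chose the classes, so the shares are a description. The classes also differed in place, with 48.9% of active-only and 6.86% of doubly marked peaks within 1 kb of a transcription start site. Neither these shares nor the positions below were matched for that distance. The position of the marks differed too. At active-only peaks H3K27ac covered 34.1% of peaks at the KAP1 centre and up to 59.6% to its sides, a dip that H3K4me1 shared (23.0 and 55.4%). At doubly marked peaks the centre was in H3K9me3 in 53.2%, in H3K4me1 in 35.0% and in H3K27ac in 28.7%, and the highest shares of H3K4me1 and H3K27ac at any position were 35.5 and 33.8%. At 4 to 5 kb from the centre, H3K9me3 still covered 14.1% of doubly marked peaks, against 8.79% of H3K9me3-only peaks.

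**Figure D2:**
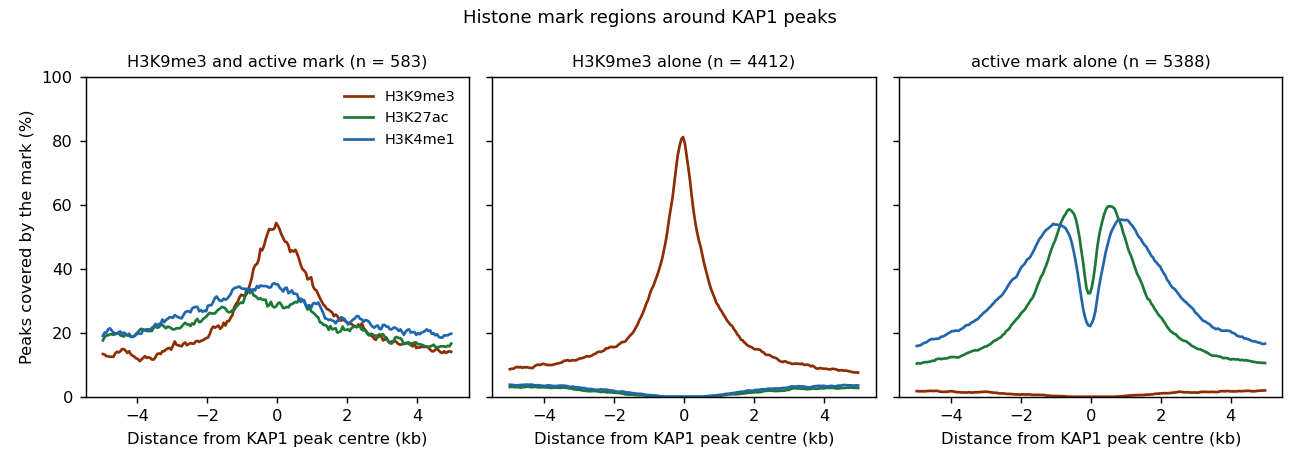
Share of KAP1 peaks (%) whose base at each distance from the KAP1 peak centre (kb) lies in a region of H3K9me3, H3K27ac or H3K4me1, for 583 doubly marked, 4412 H3K9me3-only and 5388 active-only peaks. H3K9me3 reaches 54.4% in the doubly marked and 81.3% in the H3K9me3-only peaks; the active marks dip at the centre of the active-only peaks and do not dip comparably in the doubly marked ones. The classes were not matched for distance to a transcription start site.

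PolII was the first readout that the selection did not use. In control cells 55 doubly marked peaks (9.43%, 7.32 to 12.1%) overlapped a PolII peak, where all KAP1 peaks gave 16.8%. The share was 0.952% at H3K9me3-only peaks (odds ratio 10.8, 95% interval 7.18 to 16.4) and 35.4% at active-only peaks (odds ratio 0.190, 0.143 to 0.252). Both differences passed Fisher's exact test, two-sided and adjusted by the Benjamini-Hochberg method over the 14 tests described here (7 measures against 2 classes), with adjusted p of 4.81e-27 and 1.94e-43. Doubly marked peaks thus held control PolII more often than KAP1 peaks in H3K9me3 alone and less often than those with an active mark alone. Within quintiles of KAP1 peak width the first odds ratio was 5.06. The second was 0.415 within classes of distance to a transcription start site (TSS) and 0.113 when each KAP1 peak was reduced to 500 bp around its centre, with the same call in each case.

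Under Kap1 KD, 159 doubly marked peaks (27.3%, 23.8 to 31.0%) overlapped a PolII peak, where all KAP1 peaks gave 28.6%. The share was 3.04% at H3K9me3-only peaks (odds ratio 12.0, 9.32 to 15.4, adjusted p 2.03e-76, Fisher's exact test) and 57.7% at active-only peaks (odds ratio 0.275, 0.227 to 0.332, adjusted p 1.14e-44). The order of the 3 classes was therefore the same in both PolII libraries. Of the 528 doubly marked peaks without control PolII, 113 (21.4%, 18.1 to 25.1%) had a Kap1 KD PolII peak, where KAP1 peaks without control PolII gave 15.1% in all. The share was 2.31% at H3K9me3-only peaks (odds ratio 11.5, 8.64 to 15.3, adjusted p 2.12e-55) and 36.6% at active-only peaks (odds ratio 0.473, 0.380 to 0.588, adjusted p 3.95e-12). Within quintiles of the number of mark regions nearby, the odds ratios against H3K9me3-only peaks were 7.26 for Kap1 KD PolII and 6.65 where control PolII was missing. Against active-only peaks they were 0.534 and 0.695 within classes of TSS distance, and 0.173 and 0.311 with peaks reduced to 500 bp, with the same calls.

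**Figure D3:**
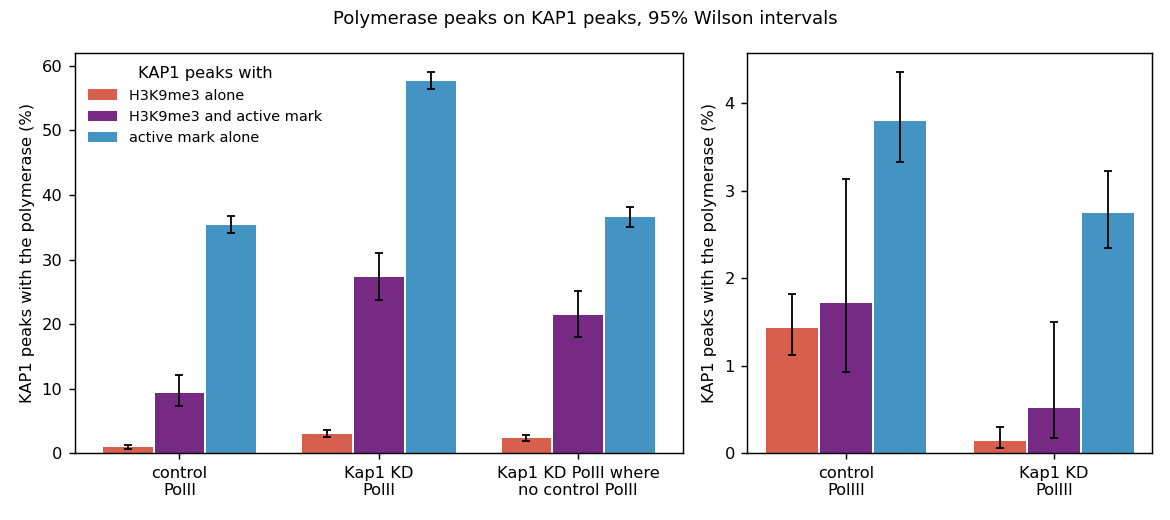
Share of KAP1 peaks (%) that overlap a polymerase peak, for H3K9me3-only, doubly marked and active-only peaks, with 95% Wilson intervals that cover counting error over peaks only. For PolII the doubly marked peaks stand between the other classes (9.43, 27.3 and 21.4%); for PolIII, on its own scale, they overlap the H3K9me3-only interval in the control and stand at 0.515% under Kap1 KD.

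The larger number of doubly marked peaks with PolII under Kap1 KD came with a longer PolII list. With the Kap1 KD list shortened to the 5015 peaks of highest score, as many as in the control, 71 doubly marked peaks (12.2%) had PolII, where all KAP1 peaks gave 16.8%. Of those without control PolII, 36 of 528 (6.82%) had it, where KAP1 peaks gave 4.88%. The shares in the other classes were then 0.549% for H3K9me3-only and 12.4% for active-only peaks, odds ratios of 13.2 and 0.519. The contrast between the classes was thus similar for the short list. The count of 71 stands beside 55 in the control and 159 with the full list. Shortening a list can only lower such counts, so the part of list length was not tested by it. The listed control PolII peaks nearest on either side of a site were also checked for a gap in their numbers or a list end. This held for 35 of the 113 doubly marked peaks with PolII under Kap1 KD only (31.0%) and for 185 of all 528 without control PolII (35.0%). It held for 24.9% of H3K9me3-only and 14.3% of active-only peaks without control PolII. How far away these neighbours lay was not measured, so a gap does not place a missing peak at the site. Where there was no such gap or end, 78 of 343 (22.7%) had PolII under Kap1 KD only, against 1.83% of H3K9me3-only and 36.8% of active-only peaks.

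Few doubly marked peaks went the other way. Of the 55 with control PolII, 46 (83.6%, 71.7 to 91.1%) also had PolII under Kap1 KD, where all KAP1 peaks with control PolII gave 95.6%. The other 9 had it in the control only. For 7 of these (77.8%, 45.3 to 93.7%) the Kap1 KD numbering had a gap or an end between the nearest listed peaks. Such a gap or end was found for 127 of all 424 doubly marked peaks without Kap1 KD PolII (30%, 25.8 to 34.5%), and the part of the gaps in the 9 was not tested. The corresponding share was 96.3% at active-only peaks and 33 of 42 (78.6%) at H3K9me3-only peaks. This difference was not tested.

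PolII under Kap1 KD was counted by kind of peak among the doubly marked peaks without control PolII. It was found at 72 of 247 peaks with H3K27ac and H3K4me1 (29.1%, 23.8 to 35.1%), at 14 of 77 with H3K27ac only (18.2%, 11.2 to 28.2%) and at 27 of 204 with H3K4me1 only (13.2%, 9.26 to 18.6%). By arrangement it was found at 23.7% (19.8 to 28.1%) of peaks where the marks shared bases, 18.2% (9.51 to 32.0%) where they were close and 12.6% (7.21 to 21.2%) where they were separate, with intervals that overlap. It was also found at 13.9, 19.2 and 32.3% of the narrowest, middle and widest peaks in 3 equal parts, and at 14.9, 20.3 and 30.1% by rising KAP1 score. None of these differences was tested, nor were the separate parts of width, score, arrangement and marks. Beyond 1 kb of any TSS, the share was 20.8% (104 of 501), against 2.40% at H3K9me3-only and 26.4% at active-only peaks and 9.81% over all such KAP1 peaks.

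Within the peak, PolII lay more on the active side. Control PolII touched bases of an active mark at 43 of 55 peaks and bases of H3K9me3 at 30, and it covered a larger share of the active than of the H3K9me3 bases at 32 against 16. Under Kap1 KD it touched active bases at 138 of 159 peaks and H3K9me3 bases at 94, and the larger share was active at 99 and H3K9me3 at 41. PolII thus reached bases of H3K9me3 at most of these peaks, while it more often covered the active bases to the larger extent. The intergenic peak chr2:164347079-164357055, whose central sequence is printed above, was covered by PolII over 7204 of its 9977 bp in the control and 9468 bp under Kap1 KD, with 5941 bp of H3K9me3. At chr2:75477123-75483693, with 79 bp of H3K9me3 and 5694 bp of H3K27ac, PolII covered all 6571 bp in the control and 6515 bp under Kap1 KD.

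PolIII, which makes tRNA, 5S rRNA, 7SK and other short RNAs, was called at 10 doubly marked peaks in the control (1.72%, 0.934 to 3.13%), where all KAP1 peaks gave 2.63%, and at 3 under Kap1 KD (0.515%, 0.175 to 1.5%), where all gave 1.51%. Of the 10, 8 lay on chromosomes 1 to 4, so that 2 in the control and 3 under Kap1 KD lay elsewhere. Against H3K9me3-only peaks the control share did not pass the test (1.43%, odds ratio 1.20, 0.615 to 2.36, adjusted p 0.580, Fisher's exact test, and 7.02 with adjusted p 0.0921 without chromosomes 1 to 4), nor did the Kap1 KD share (0.136%, odds ratio 3.80, 0.947 to 15.2, adjusted p 0.0906). Against active-only peaks the control share was lower (3.80%, odds ratio 0.441, adjusted p 0.00886), and it stayed lower but did not pass the test without chromosome 13 (odds ratio 0.544, adjusted p 0.0822), with H3K27ac as the only active mark (0.621) or with each mark on at least 0.2 of the peak (0.667). Without chromosomes 1 to 4 this odds ratio was 0.119 (adjusted p 5.47e-05). The Kap1 KD share was lower too (2.75%, odds ratio 0.183, adjusted p 3.80e-04). The 3 peaks under Kap1 KD all lie on chromosome 15, and without that chromosome none is left. Without chromosome 5 the odds ratio against H3K9me3-only peaks was 5.95 and passed the test (adjusted p 0.0407). In 8 of the 10 control peaks PolIII covered a larger share of the H3K9me3 than of the active bases. A pair of them lies in Cgn, a tight junction gene, at chr3:94509762-94514177 and chr3:94517535-94521862, with 1293 and 2385 bp of PolIII and no PolII. The peak chr15:93064309-93066900, over an annotated 7SK copy, had all 4 polymerase calls, with 1670 and 2407 bp of PolII and 156 and 620 bp of PolIII in control and Kap1 KD cells. At chr15:99691414-99699420, in Lima1, which encodes an actin-binding protein, PolIII covered 227 bp in the control and 4292 bp under Kap1 KD, and PolII 1362 and 4223 bp.

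Doubly marked peaks were mostly far from genes. Only 40 (6.86%, 5.08 to 9.21%) had their centre within 1 kb of a TSS of a protein-coding gene, where all KAP1 peaks gave 28.1%. The share was 48.9% at active-only peaks (odds ratio 0.0770, adjusted p 3.69e-99, Fisher's exact test) and 10.4% at H3K9me3-only peaks (odds ratio 0.633, 0.453 to 0.885, adjusted p 0.00886). The latter difference did not hold at a distance of 3000 bp, where the odds ratio was 1.03. It did not pass the test within quintiles of local mark density either (odds ratio 0.757, adjusted p 0.152). Between genes and beyond 3 kb of a TSS lay 363 peaks (62.3%, 58.3 to 66.1%), where all KAP1 peaks gave 47.9%. This was more than the 29.8% of active-only peaks (odds ratio 3.89, 3.25 to 4.64, adjusted p 5.50e-52). Against the 64.1% of H3K9me3-only peaks it did not pass the test (odds ratio 0.926, 0.775 to 1.11, adjusted p 0.441). A further 119 (20.4%) were intronic and 10 exonic beyond 3 kb of a TSS, and 51 lay 1 to 3 kb from one. In PolII these peaks thus stood between the other classes, and in location they differed clearly from the active-only class.

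The doubly marked peaks were crowded into mark-rich stretches. Within 50 kb to each side, outside the peak itself, they had a median of 30 regions of the 3 marks, against 12 for H3K9me3-only, 19 for active-only and 8 for peaks with neither. In the quintile of KAP1 peaks with the highest density lay 322 of them (55.2%). They made up 12.3% of the KAP1 peaks of that quintile and 2.65% of the others. Chromosome 15 held 97 (11.1% of its 870 KAP1 peaks), chromosome 6 held 77, chromosome 1 held 59 and chromosome 5 held 57. These 4 chromosomes together had 49.7% of the doubly marked peaks and 30.4% of all KAP1 peaks. On chromosome 15, 383 of its KAP1 peaks (44.0%) lay in the densest quintile. Another doubly marked peak lay within 10 kb of 105 (18%) and within 100 kb of 232 (39.8%), so neighbouring peaks are not independent. The density comes from the lists that chose the peaks and is a description. The 20 mouse chromosomes other than Y all held at least 3 of these peaks.

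The sequence at the centre of these peaks was poor in CpG and, compared with H3K9me3-only peaks, in the ZFP57 core motif. TGCCGC, searched on both strands in 300 bp around the centre, was found in 67 doubly marked peaks (11.5%, 9.15 to 14.3%), where all KAP1 peaks gave 26%. The share was 36.8% (35.4 to 38.2%) at H3K9me3-only, 14.2% (13.3 to 15.2%) at active-only and 37.8% (35.7 to 39.9%) at unmarked KAP1 peaks, and 1.81% over all 300 bp tiles of the genome. Away from TSSs, by more than 1 kb, it was 11.0, 34.4 and 7.44% for doubly marked, H3K9me3-only and active-only peaks. The frequency of CpG relative to that expected from base composition had a median of 0.255 (interquartile range 0.125 to 0.457) at doubly marked, 0.435 at H3K9me3-only and 0.518 at active-only peaks. For distal peaks the medians were 0.238, 0.386 and 0.228. By CpG the doubly marked peaks were thus like distal active-only peaks, and G+C was 46.7% in the median against 49.3 and 53.7% for all H3K9me3-only and active-only peaks. Among doubly marked peaks the motif was found at 10.6% where the marks shared bases and 16.1% (10.0 to 24.9%) where they were separate. A wide peak's centre may lie off the bound site. In 500 bp the shares were 16.1, 43.7 and 21.4%. None of these sequence shares was tested.

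**Figure D4:**
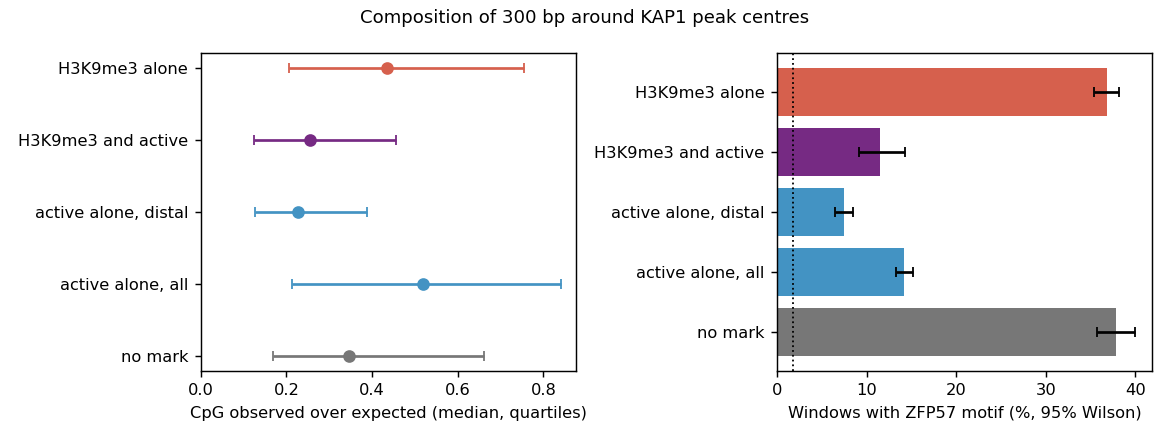
CpG observed over expected (left, median with quartiles) and share of windows with the ZFP57 core motif (right, %, with 95% Wilson intervals) in 300 bp around the centres of KAP1 peaks by class; distal peaks lie over 1 kb from a TSS, and the dotted line is the share of all 300 bp tiles of the genome, 1.81%. The doubly marked peaks, at 0.255 and 11.5%, stand nearer to the distal active-only peaks than to the H3K9me3-only peaks on both scales.

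Bases in H3K9me3 and an active mark together were not particular to KAP1. The mark lists shared 8025 stretches (4.38 Mb) over the genome, and KAP1 lay on 594 of them. Control PolII overlapped 18 of the stretches with KAP1 (3.03%, 1.93 to 4.74%) and 95 of the 7431 without (1.28%, 1.05 to 1.56%), where all stretches gave 1.41%. Kap1 KD PolII overlapped 82 (13.8%, 11.3 to 16.8%) and 381 (5.13%, 4.65 to 5.65%), where all gave 5.77%. Without control PolII the shares were 11.8% (9.42 to 14.7%) and 4.68% (4.22 to 5.18%), where all gave 5.19%. The odds ratios were 2.41, 2.96 and 2.73, and 2.50, 3.14 and 2.91 within quintiles of stretch width. This comparison was chosen after the other results had been seen, so it is a description and no p-value is given for it. The stretches with KAP1 were longer (median 308 against 224 bp).

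Few protein-coding genes had a doubly marked peak, and the counts in known gene groups were small. Of 22367 protein-coding genes, 207 (0.925%) had such a peak over the gene or within 1 kb of a TSS, and 43 (0.192%) had it within 1 kb of a TSS. Of 69 imprinted genes in the annotation there were 2 (2.90%), Zrsr1 and Commd1. Of 393 zinc finger genes, whose clusters are known KAP1 targets, there were 5 (1.27%): Zfp169, Zfp316, Zfp503, Zfp747 and Zfp97. Of 38 genes for KAP1 partners and heterochromatin proteins there was 1 (2.63%), Trim24, a relative of KAP1 itself. Histone genes had 2 of 67 (2.99%, Hist2h2bb and Hist2h3b, at the same peak). Immediate early genes had 1 of 31 (3.23%, Atf3), and olfactory and vomeronasal receptors 1 of 1440 (Vmn2r87). None was found at 98 cytochrome P450, 30 heat shock, 25 liver transcription factor, 29 plasma protein, 24 protocadherin and 144 ribosomal protein genes, nor at the 15 hepatocyte markers or the 10 markers of other cell types. The share of all genes was 0.925%. The receptors (0.0694%) and the groups with none stood below it. The imprinted, histone, immediate early, KAP1 partner and zinc finger groups stood above it, with at most 5 genes each. None of these counts was tested.

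The imprinted pair is a single locus. Zrsr1 is an intronless gene expressed from the paternal allele that lies inside Commd1. The peak chr11:22871227-22873852, with a KAP1 score of 3100 (a value that 152 KAP1 peaks share, 4 of them doubly marked), had its centre 319 bp from the nearest TSS, that of an annotated Commd1 transcript, and within 1 kb of the Zrsr1 TSS. H3K9me3 covered 2071 of its 2626 bp and H3K4me1 326 bp, all of them in H3K9me3, with no H3K27ac. PolII covered 1308 bp in the control and 1444 bp under Kap1 KD. The repeated TAACTGCG runs printed above lie at its centre. A second doubly marked peak, chr11:22867062-22868370, lay in Commd1 with 229 bp of H3K9me3, 614 bp of H3K27ac and 725 bp of H3K4me1, and with no PolII.

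At Atf3, which encodes a stress-induced transcription factor, the peak chr1:193005860-193009262 lay over the TSS region with its centre 342 bp away. H3K9me3 covered 1271 bp on its upstream side and H3K27ac 393 bp and H3K4me1 370 bp, with no base in common and 95 bp between the nearest edges. PolII covered 206 bp of the peak in the control and 1378 bp under Kap1 KD. Both PolII peaks ended short of the H3K9me3 region, as the map of the locus shows.

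**Figure D5:**
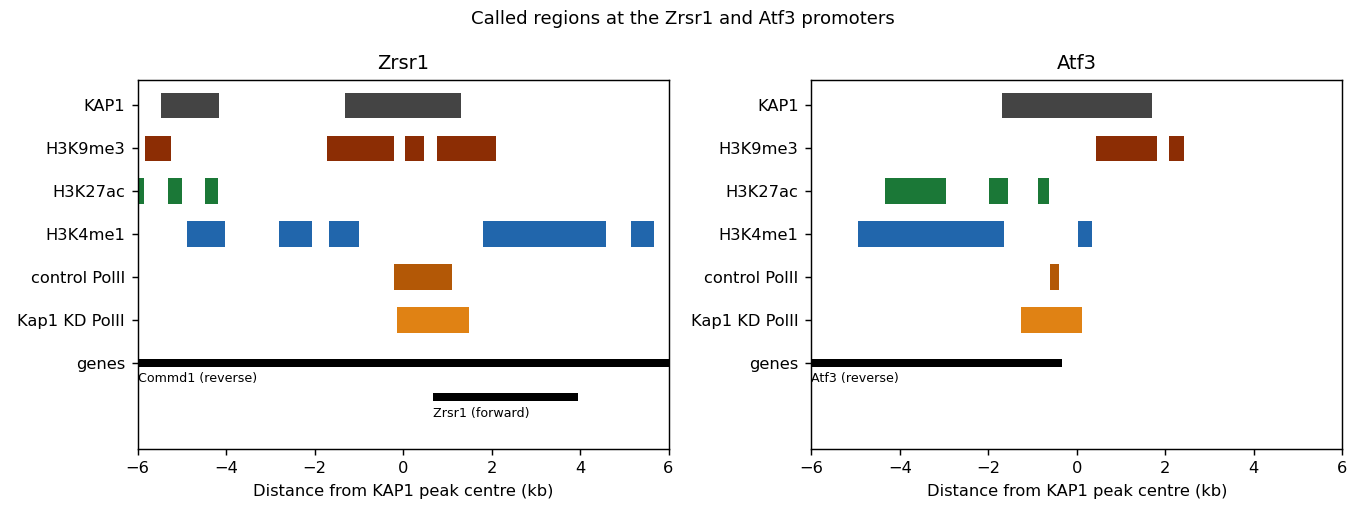
Called regions of KAP1, the 3 marks and PolII, and protein-coding genes with their direction, over 6 kb to each side of the KAP1 peak centre (distance in kb) at Zrsr1 and at Atf3. At Zrsr1 the PolII peaks lie partly on H3K9me3 (KAP1 peak of 2626 bp, 2071 bp in H3K9me3); at Atf3 H3K9me3 lies to the right and PolII to the left of it.

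The 10 doubly marked peaks of highest KAP1 score lay at genes and between them, and those at Zrsr1 and at chr2:164347079-164357055 are described above. The highest, chr2:168055543-168057852 with a score of 3115, lay at Mocs3, a gene of molybdenum cofactor synthesis, and Dpm1, a gene of dolichol-linked mannose synthesis. It had 1442 bp of H3K9me3 and, 385.0 bp away, 124 bp of H3K27ac, and 487 bp of PolII under Kap1 KD only. At Fcgr3, an immunoglobulin Fc receptor gene, chr1:172993529-172997901 had 3217 bp of H3K9me3, 471 bp of H3K4me1 and no polymerase. Next to it lay the widest doubly marked peak, chr1:172997971-173015988, with 15256 of its 18018 bp in H3K9me3, 4315 bp in H3K4me1 and no polymerase. Over Hlx, a homeobox gene, chr1:186550148-186559438 had 6469 bp of H3K9me3, 1540 bp of H3K27ac and 2049 bp of H3K4me1 set 7.0 bp apart from it, 1601 bp of control PolIII and 454 bp of PolII under Kap1 KD only. The intergenic peak chr6:47727558-47732307, over an annotated Y RNA copy, was mostly active, with 2931 bp of H3K4me1 and 177 bp of H3K9me3, and 507 bp of PolII under Kap1 KD only. In Kirrel, a cell adhesion gene, chr3:86957057-86960560 had 1821 bp of H3K9me3, 1137 bp of H3K27ac and no polymerase. The intergenic peaks chr11:94955460-94958993 and chr1:173418478-173421486 had 1239 and 2507 bp of H3K9me3, and only the former had PolII, with 972 bp in the control and 2307 bp under Kap1 KD. An intergenic peak on chromosome 18, with 1368 bp of H3K9me3 and 2604 bp of H3K27ac, had 391 and 759 bp.

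Sites with PolII under Kap1 KD only included Ccdc48 and the repeat window printed above. At chr6:87684051-87686652 in Ccdc48, H3K9me3 covered 1714 bp, H3K27ac 498 bp and H3K4me1 544 bp with 84 bp between the edges, and PolII covered 1973 of the 2602 bp. At chr13:74665561-74669897 H3K9me3 covered 1696 bp, H3K27ac 1599 bp and H3K4me1 632 bp, and PolII covered 592 bp. The centre of that peak is the ACAGCACA repeat.

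The 5 doubly marked peaks with most bases in both kinds of mark had no PolII. At chr17:39979526-39986172, over AY036118, 5785 of 6647 bp were in both. How often the sequence of this site recurs in the genome was not examined. At chr3:98305542-98317620, over Hsd3b4, a gene of steroid metabolism, 4376 bp were in both, with 11158 of 12079 bp in H3K27ac. The figures were 4315 bp for the widest peak on chromosome 1, 3764 bp for chr15:93470701-93476558, which is intergenic, and 3393 bp for chr4:109368350-109372807, in Faf1, an apoptosis factor gene. PolII and PolIII were called at none of these 5 peaks in either condition. Among the 5 widest, the intergenic peak chr5:115007214-115017929 (10716 bp, 2792 bp in both marks) had 2526 and 2584 bp of PolII in control and Kap1 KD cells.

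Of the 40 peaks near a TSS, 13 (32.5%, 20.1 to 48.0%) had control PolII and 22 (55.0%, 39.8 to 69.3%) had PolII under Kap1 KD, where all KAP1 peaks near a TSS gave 43.8 and 63.4%. The shares near a TSS were 1.52 and 2.61% for H3K9me3-only and 55.0 and 78.5% for active-only peaks, and these differences were not tested. PolII in both conditions was seen at Ftl1, the ferritin light chain gene, over all of the peak (1480 bp), at Smarca5, a chromatin remodeller gene (845 and 975 bp), at Pdgfa, a growth factor gene (2132 and 2580 bp), and at Slc7a1, an amino acid transporter gene (1775 and 3465 bp). Under Kap1 KD only it was seen at Actg1, a cytoplasmic actin gene (4300 bp), Lpcat3, a phospholipid enzyme gene (1379 bp), and Foxm1, a cell cycle transcription factor gene (537 bp). For Actg1 the paper reports a ratio of PolII at the start site to PolII over the gene body in both conditions. No PolII was called at Pparg, which encodes a nuclear receptor of fat cells, at Zfp316 or at Muc19, a mucin gene. Pax2, a developmental transcription factor gene, had 2 doubly marked peaks. The peak with 241 bp of H3K9me3 and 954 bp of H3K27ac had 1504 and 1549 bp of PolII, and the other, with 1715 bp of H3K9me3 and 131 bp of H3K4me1, had none. Hist2h2bb had 1135 bp of control PolIII and no PolII, and histone genes have near-identical copies. The Trim24 peak, 2759 bp from a TSS and so not among the 40, had 32 bp of PolII in the control only. Of the zinc finger genes, only Zfp316 had its peak centre within 1 kb of a TSS. The Zfp503 peak, centred at 71.0% of the gene from its 5′ end, had PolII in both conditions (884 and 1153 bp). The Zfp97 peak, at 99.1%, had it under Kap1 KD only (828 bp, with H3K9me3 over all 3964 bp of the peak). The peaks in Zfp747 (51.1%) and Zfp169 (20.9%) had none.

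At the edge of the rule, 13 doubly marked peaks had under 50 bp of H3K9me3 or of an active mark and 54 had under 100 bp. Just inside were chr4:14147563-14148562 with 20 bp of an active mark, chr10:56243638-56244768 with 20 bp, and chr17:48279929-48280879 with 23 bp of H3K9me3. Just outside, chr15:45498047-45499392 missed an active mark by 2 bp, and chr1:166908013-166909112 and chr13:3359909-3360972 by 5 bp each. In all, 18 KAP1 peaks lay within 50 bp of the missing mark. None of these 6 peaks had PolII.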

How the data were processed

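Hepa 1-6 ChIP-Seq lists of 8 libraries were used, 1 per antibody and condition; 5 input samples have no list here and were left out. Per the methods, the authors mapped reads with Bowtie to mm9, used MACS with total input as background for KAP1 and PolII, and ChIP-Part for histone regions; the PolIII caller is not given in the sources used here. The KAP1, PolII and PolIII lists were deposited with a score per peak, the meaning of which was not stated for the polymerases, and it was used only to rank or stratify. The mark lists hold positions alone. Depth is unknown.

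Coordinates lie within the NCBIM37 chromosome lengths; genes are GENCODE M1, TSSs are transcript starts of protein-coding genes, and positions count from 1. Overlap needed 1 bp. Classes were compared by Fisher's exact test with odds ratios, Benjamini-Hochberg adjustment over 14 tests and a threshold of 0.05; strata used Mantel-Haenszel odds ratios. Wilson intervals (95%) cover counting error over peaks only. Python 3.11.15, SciPy 1.17.1, pandas 2.3.3 and statsmodels 0.14.6 were used; overlap and tests were checked on simulated data. Members, gene lists and tests were chosen with earlier results of these data known. Sites named were the 10 highest KAP1 scores, the 5 highest with control PolII and with PolII under Kap1 KD only, the 5 with most bases in both marks, the 5 widest, the 3 nearest the rule's edge on each side, and sites at imprinted, KAP1 partner or other listed genes; further sites (PolIII peaks and genes near a TSS) were named after their values were seen. The local density strata, the polymerase counts without chromosomes 1 to 4 and the comparison of shared stretches were added after seeing the data. Alternatives were a larger overlap, a share of at least 0.2, peaks of 500 bp, 1 active mark, strata of width, score and TSS class, an equal-length list, other TSS distances and leaving out chromosomes.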

Additional observations from a re-analysis of the deposited data

Results flagged for a closer look

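Polymerase calls at the doubly marked KAP1 peaks went in opposite directions for PolII and PolIII over all chromosomes, but not without chromosomes 1 to 4. PolII was called at 55 of them in control cells and at 159 in Kap1 KD cells, a ratio of 2.89. PolIII was called at 10 and 3, a ratio of 0.300. Without chromosomes 1 to 4, which hold 89.5% of the control PolIII list and 8 of these 10 peaks, PolIII was called at 2 and 3, a ratio of 1.50, and PolII at 46 and 126, a ratio of 2.74. Each count rests on 1 library, so the difference was not tested. The whole lists moved the same way, from 5015 to 12862 peaks for PolII and from 2772 to 431 for PolIII. The part of list length in the counts at these sites was not tested. For PolII a Kap1 KD list of equal length gave 71 peaks.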

How the results depend on the processing

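No paired analysis was possible because each group holds 1 library. The 14 tests were recomputed under 430 alternatives in all, and 417 gave the same direction and the same call, including all 184 for PolII. Most of these alternatives left out a single chromosome and so kept nearly the same peaks. Chromosome Y held 1 KAP1 peak and 0 doubly marked peaks, so leaving it out could change little. For control PolIII against active-only peaks the odds ratio no longer passed with each mark on at least 0.2 of the peak (0.667), with H3K27ac as the active mark (0.621) and without chromosome 13 (0.544). For control PolIII against H3K9me3-only peaks, where no difference had passed, the direction turned with peaks of 500 bp (0.152), within width strata (0.941) and without chromosome 3 (0.872), and the odds ratio was 7.02 without chromosomes 1 to 4. Kap1 KD PolIII against H3K9me3-only peaks passed without chromosome 5 (5.95) and turned without chromosome 15 (0.647), where no doubly marked peak with it is left. The intergenic share against H3K9me3-only peaks, also without a call, turned with peaks of 500 bp (1.13) and width strata (1.17). With H3K27ac alone it stood at 1.0, with no direction at these digits. Kap1 KD over control counts of PolIII turned from a ratio of 0.300 to 1.50 without chromosomes 1 to 4, a setting added after the data were seen. The TSS share turned at 3000 bp (1.03) and no longer passed within density strata (0.757). The cause was not tested. The class held 328 peaks with each mark on 0.2 of the peak, 274 with peaks of 500 bp and 366 with H3K27ac alone. Peaks with shared or close marks were 84.0%, 93.7% with close set at 500 bp and 72.7% with H3K27ac alone. The motif share was 16.1% in 500 bp. With 1 library per group and no depth, no replicate spread can be given, and a missing polymerase call does not show that the polymerase was absent.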
